A study of Homo sapiens with 6 samples.

Results

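S100 proteins and annexins, the calcium-binding families compared here, were read in cells of the established human bladder cancer line T24 that had been given ox-LDL, a low-density lipoprotein whose lipids and protein were oxidized. Members were the probe sets whose platform gene symbol begins with S100 followed by A, B, G, P or Z, or with ANXA and a digit. This gave 35 of the 21448 non-control probe sets of the array, 1 for each gene, 21 with an S100 symbol and 14 with an annexin symbol. Their names hold a pair of genes that are not family members by structure: S100PBP encodes a protein that binds S100P, and ANXA2R encodes a receptor of annexin A2. The other 20 S100 genes and 13 annexins are family members proper.

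The ox-LDL group held 3 arrays of T24 cells given 20 µg/mL ox-LDL for 24 h, and the vehicle group 3 arrays of T24 cells given vehicle for the same time, both after 12 h without serum. A free-text field of the same arrays speaks instead of siRNA against G9a and of control siRNA, against their titles, source and treatment fields, which were followed. EHMT2, the gene of G9a, had log2 values of 8.34, 8.26 and 8.06 with ox-LDL against 8.005, 7.91 and 7.63 with vehicle, a difference of 0.37 that did not pass the test (adjusted p = 0.125). Nothing in the labels says that arrays of a group came from separate cultures, so p-values here cover just the spread among these 6 arrays, and that spread may be technical. T24 is 1 cell line, and in RNA of whole cultures a smaller number of expressing cells and less RNA per cell cannot be told apart.

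S100 proteins are small proteins that bind calcium through paired EF-hand motifs, mostly as dimers, and then attach to and regulate other proteins. Annexins bind negatively charged phospholipids when calcium rises, and thereby take part in membrane repair, vesicle traffic and the handling of plasminogen at the cell surface. The families meet in complexes, since S100A10 pairs with annexin A2 and S100A11 with annexin A1, and several S100 genes are used as markers of epithelial and myeloid cells.

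Values are log2 expression values of probe sets, and differences are ox-LDL minus vehicle on the log2 scale. The third vehicle array stood apart. It correlated with the others at 0.979 to 0.988 over all probe sets, where pairs of the other 5 arrays reached 0.992 to 0.997, and its 8 background probe sets with at least 18 G or C bases averaged 7.59 against 7.09 to 7.19. Values were also compared with a negative control limit, the 95th percentile of the negative control probe sets, which was 5.09. Of 8 measured urothelial markers 6 lay above it on all arrays, while UPK1B and UPK3A did on none. Of 6 epithelial markers KRT7, KRT8, KRT18 and KRT19 did on all 6 arrays, EPCAM on 5 and CDH1 on none. Of 7 myeloid markers CD14, CSF3R and MPO lay above the limit on all 6 arrays, FCGR1A on 1, and PTPRC, LYZ and AIF1 on none. Of 3 erythroid, 4 endothelial, 4 fibroblast and 3 lymphoid markers, 3, 3, 3 and 1 lay above it on all arrays, and none passed. A value above the limit therefore does not by itself show expression. No urothelial, epithelial or myeloid marker passed in limma or with an unmoderated t statistic, and 0, 1 and 1 of them had an unadjusted p under 0.05. Over all probe sets 26.1% had such a p and 6.77% passed in limma, and 1087 of 21448 passed with an unmoderated t statistic.

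With ox-LDL, ANXA8, ANXA8L1, ANXA2R and S100A2 rose and ANXA10 fell, by 1.29-fold to 1.41-fold for the 4 that rose. The other 30 members did not pass, where passing means a limma p, adjusted by Benjamini-Hochberg over all probe sets, under 0.05. Among all probe sets 6.77% passed, 3.48% upward and 3.29% downward, beside 4 members upward and 1 downward of 35. With ANXA8 and ANXA8L1 being near-identical copies, the 5 calls are not 5 separate observations. The median difference was -0.00 over the 21 S100 symbols and 0.06 over the 14 annexin symbols, against -0.03 over all probe sets. The S100 median was slightly below 0 in these values and turned to 0.03, 0.04 and 0.03 with equal array medians, a second quantile normalization and cyclic loess, while the annexin median was 0.09, 0.04 and 0.03.

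**Figure D1:**
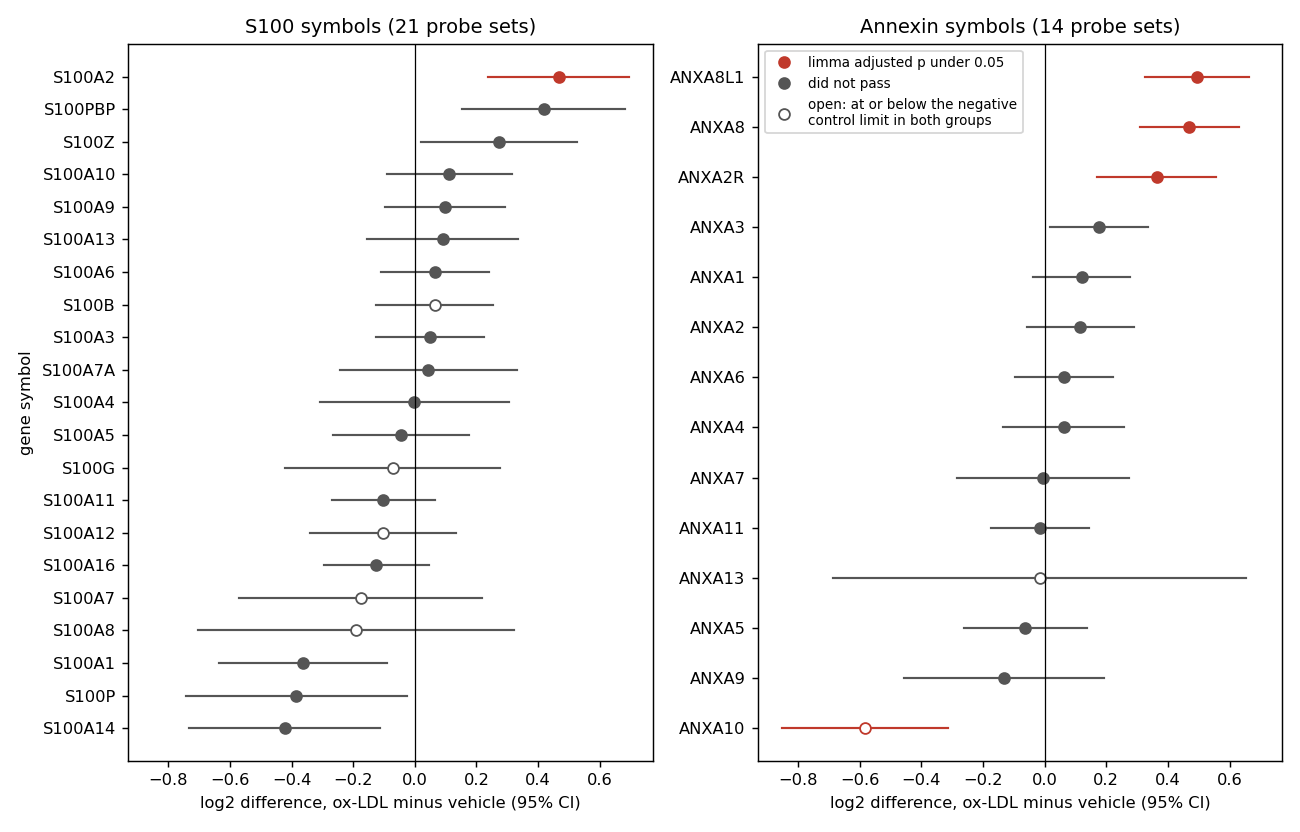
Differences of log2 value, ox-LDL minus vehicle, on the horizontal axis for each S100 symbol (left) and annexin symbol (right), with 95% confidence intervals from limma; red marks the 5 that passed and open points those at or below the negative control limit in both groups. Most points lie near 0. ANXA8L1, ANXA8, S100A2, S100PBP and ANXA2R stand furthest to the right, and ANXA10, S100A14, S100P and S100A1 furthest to the left.

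Of the 35 members, 28 lay above the negative control limit in at least 1 group mean and 7 did not in either, namely S100A7, S100A8, S100A12, S100B, S100G, ANXA10 and ANXA13. Of those 28, 4 passed, where 8.31% of all probe sets above the limit in at least 1 group did. By family 16 of 21 S100 symbols and 12 of 14 annexin symbols were above it. In 17 members the 3 arrays of 1 group lay wholly above those of the other, 11 with ox-LDL on top and 6 with vehicle on top, where 36.8% of all probe sets were so separated. In annexins the separated members were 7 with ox-LDL on top and 1 with vehicle on top, and in S100 symbols 4 and 5. The like counts over all 21448 probe sets were 4097 and 3801. Those 7 annexin symbols include the near-identical copies ANXA8 and ANXA8L1. The 1 with vehicle on top is ANXA10, which lay under the negative control limit on all arrays. An unadjusted p under 0.05 was reached by 11 of 35, where 26.1% of all probe sets reached it. None of the 35 met the selection stated in the study's design, which asks for a fold change of 1.5 or more and an unadjusted p no higher than 0.001 and took 2.31% of all probe sets. At the adjusted threshold an unmoderated t statistic called 3 of the 35, and 1087 of all 21448 probe sets. The 3 were ANXA8, ANXA8L1 and ANXA3, of which ANXA3 is not among the 5 that passed in limma.

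ANXA8 and ANXA8L1, copies of a single annexin gene on chromosome 10 that encode phospholipid-binding proteins found in epithelia, had the smallest p of all members. ANXA8 had log2 values of 10.64, 10.62 and 10.68 with ox-LDL against 10.13, 10.21 and 10.18 with vehicle. ANXA8L1 had log2 values of 10.48, 10.50 and 10.49 with ox-LDL against 9.97, 10.07 and 9.94 with vehicle. All 3 ox-LDL arrays were above all 3 vehicle arrays in both probe sets, and the ox-LDL arrays differed by less than 0.1 from one another. The means of ANXA8 were 10.64 ± 0.03 with ox-LDL and 10.18 ± 0.04 with vehicle (SD, n = 3 each), a difference of 0.47 (SE 0.07, 95% confidence interval 0.31 to 0.63, adjusted p = 0.0117), or 1.38-fold. The difference of ANXA8L1 was 0.50 (SE 0.07, interval 0.33 to 0.66, adjusted p = 0.0114), or 1.41-fold. Probes of either copy can read the other's transcript, so the share of each is uncertain and the values are 1 observation rather than 2. Leaving out a single ox-LDL array ended both calls. Limma adjusted p was 0.0707, 0.0704 and 0.0758 for ANXA8 and 0.0696, 0.0731 and 0.0703 for ANXA8L1 without replicates 1, 2 and 3. The differences were then 0.47, 0.48 and 0.45 for ANXA8 and 0.50, 0.49 and 0.49 for ANXA8L1. Calls over all probe sets moved from 1451 to 309, 305 and 335 in the same settings, and to 2670 without vehicle replicate 3. Both calls were kept without any 1 vehicle array, with differences of 0.45 to 0.49 for ANXA8 and 0.47 to 0.53 for ANXA8L1.

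ANXA2R, which encodes a receptor of annexin A2, had log2 values of 6.62, 6.76 and 6.70 with ox-LDL against 6.44, 6.28 and 6.28 with vehicle. The groups did not overlap, with vehicle replicate 1 the nearest to the ox-LDL arrays. Its difference of 0.36 (SE 0.08, interval 0.17 to 0.56) was close to the threshold (adjusted p = 0.0470). It was kept without vehicle replicate 3 (adjusted p = 0.0447) and lost without vehicle replicates 1 and 2 (0.0568 and 0.116), and each ox-LDL array left out in turn also ended the call (adjusted p = 0.134, 0.189 and 0.167). It was lost as well with an unmoderated t statistic (adjusted p = 0.0719) and under a robust limma fit with an intensity trend (0.0699). ANXA2R had values near those of the erythroid marker HBB (means 6.21 with ox-LDL and 6.60 with vehicle), so its expression here is uncertain.

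ANXA10, an annexin with divergent calcium sites that is used as a marker in gastric and urothelial tumours, had log2 values of 3.87, 4.18 and 4.01 with ox-LDL against 4.75, 4.61 and 4.46 with vehicle. All ox-LDL arrays were below all vehicle arrays, but all 6 lay under the negative control limit, so no fold is given. The difference was -0.58 (SE 0.11, interval -0.85 to -0.31, adjusted p = 0.0316). The call was lost after a second quantile normalization (difference -0.52, adjusted p = 0.0603) and after cyclic loess (-0.51, adjusted p = 0.0707), and with an unmoderated t statistic (adjusted p = 0.0931). Of the arrays, only vehicle replicate 3 could be left out with the call kept (adjusted p = 0.0178), against 0.0680 to 0.130 without any other.

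The remaining 10 annexins, which include the abundant family members of most cells, did not pass. ANXA3 had log2 values of 11.63, 11.56 and 11.60 with ox-LDL against 11.45, 11.40 and 11.42 with vehicle, a difference of 0.18 (SE 0.07, adjusted p = 0.158). ANXA1, the glucocorticoid-regulated annexin that acts on formyl peptide receptors, had values of 12.30, 12.33 and 12.31 with ox-LDL against 12.23, 12.17 and 12.17 with vehicle, a difference of 0.12 (SE 0.07, adjusted p = 0.293). ANXA2, which binds plasminogen and tissue plasminogen activator together with S100A10, had values of 13.11, 13.15 and 13.19 with ox-LDL against 13.06, 13.09 and 12.95 with vehicle, a difference of 0.12 (SE 0.07, adjusted p = 0.347). In all 3 genes the ox-LDL arrays were higher without overlap. ANXA3 was called in limma among probe sets above the median level (adjusted p = 0.0486) and under a robust fit with an intensity trend (0.0140), and with an unmoderated t statistic (0.0461), and ANXA1 was called under the trend (0.0362). Without vehicle replicate 3 the difference of ANXA2 was 0.075. ANXA9 had values of 6.81, 6.87 and 7.05 with ox-LDL against 6.79, 7.05 and 7.28 with vehicle, and its groups overlapped (difference -0.13, SE 0.14). That difference was -0.014 without vehicle replicate 3 and -0.26 without vehicle replicate 1. ANXA9 lay near the endothelial marker VWF (means 6.97 with ox-LDL and 7.27 with vehicle), so its expression here is uncertain. ANXA5, the phosphatidylserine-binding annexin used to stain dying cells, had a difference of -0.06, and ANXA4, ANXA6, ANXA7 and ANXA11 had differences of 0.06, 0.06, -0.01 and -0.02, with 95% confidence intervals inside -0.29 to 0.27 for these 5. ANXA13, an intestinal annexin under the negative control limit, had a difference of -0.02 with an interval of -0.69 to 0.65.

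**Figure D2:**
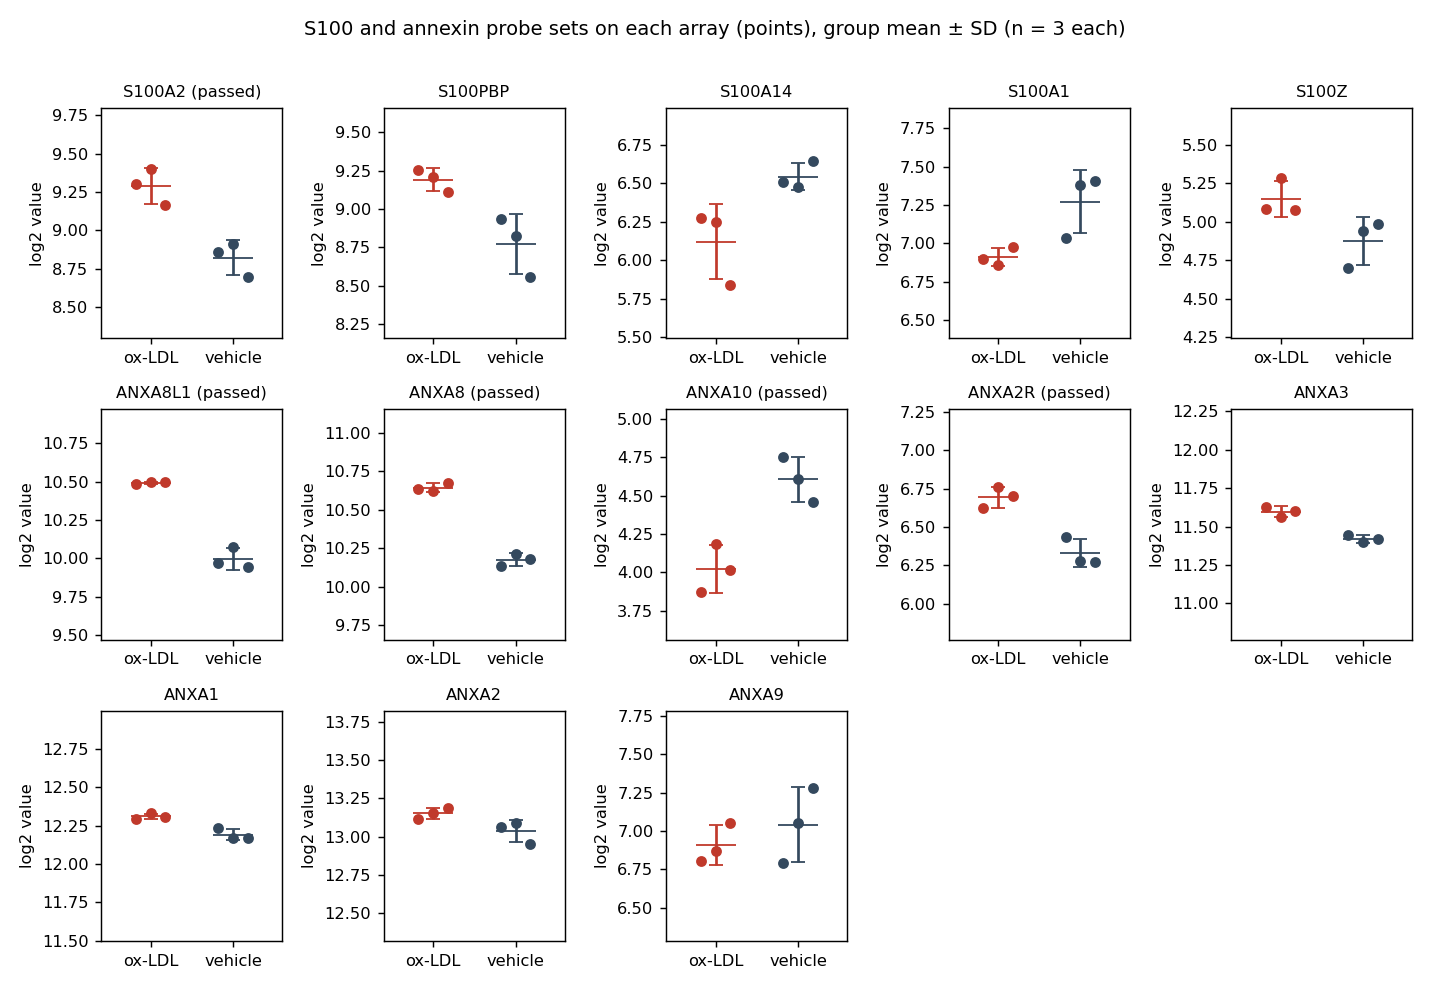
Log2 value on each array (points) with the group mean and SD for the 5 members that passed and the 4 S100 and 4 annexin symbols with the next smallest p, ox-LDL in red and vehicle in dark blue (n = 3 each); every panel spans 1.5 log2 units. The ox-LDL points of ANXA8L1 and ANXA8 lie together above the vehicle points, and those of ANXA10 below them.

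S100A2, a nuclear S100 protein of epithelial cells that binds p53, was the S100 gene that rose. It had log2 values of 9.30, 9.40 and 9.16 with ox-LDL against 8.86, 8.91 and 8.69 with vehicle. The groups did not overlap, and the third array was the lowest in each. Means were 9.29 ± 0.12 with ox-LDL and 8.82 ± 0.11 with vehicle (SD, n = 3 each), a difference of 0.47 (SE 0.10, interval 0.24 to 0.69, adjusted p = 0.0373), or 1.38-fold. The call was kept without vehicle replicate 3, the array that stood apart (0.40, adjusted p = 0.0338), and lost without vehicle replicates 1 and 2 (0.0752 and 0.0700), when any ox-LDL array was dropped (0.147, 0.156 and 0.0843), and with an unmoderated t statistic (0.0857).

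The other S100 symbols with small p went both ways and did not pass. S100PBP had log2 values of 9.26, 9.21 and 9.11 with ox-LDL against 8.94, 8.82 and 8.56 with vehicle, a difference of 0.42 (SE 0.11, adjusted p = 0.0739), and was called without vehicle replicate 3 (0.31, adjusted p = 0.0477), above the median level (0.0302), with the trend (0.0281) and with array weights (0.0165). S100A14, an epithelial S100 protein, had values of 6.27, 6.25 and 5.84 with ox-LDL against 6.51, 6.48 and 6.64 with vehicle, a difference of -0.42 (SE 0.13, adjusted p = 0.106). S100A1, best known from heart and skeletal muscle, had values of 6.90, 6.86 and 6.98 with ox-LDL against 7.03, 7.38 and 7.40 with vehicle, a difference of -0.36 (SE 0.11, adjusted p = 0.109), and was called without vehicle replicate 1 (-0.48, adjusted p = 0.0408) and with array weights (0.0308). In these 3 genes the arrays of the groups did not overlap. S100Z had values of 5.08, 5.29 and 5.08 with ox-LDL against 4.70, 4.94 and 4.99 with vehicle, on both sides of the negative control limit (difference 0.27, SE 0.11). S100P, a placental and tumour-associated S100 protein singled out here after its values were seen, had values of 6.65, 6.69 and 6.72 with ox-LDL against 6.87, 6.92 and 7.43 with vehicle. Its difference of -0.38 (SE 0.15, adjusted p = 0.169) was -0.21 without vehicle replicate 3, the highest array. S100A14, S100A1 and S100P had values near those of HBB, an erythroid marker, or VWF, an endothelial marker. HBB had means of 6.21 with ox-LDL and 6.60 with vehicle, and VWF of 6.97 and 7.27. Whether these S100 genes are expressed here is therefore uncertain.

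**Figure D3:**
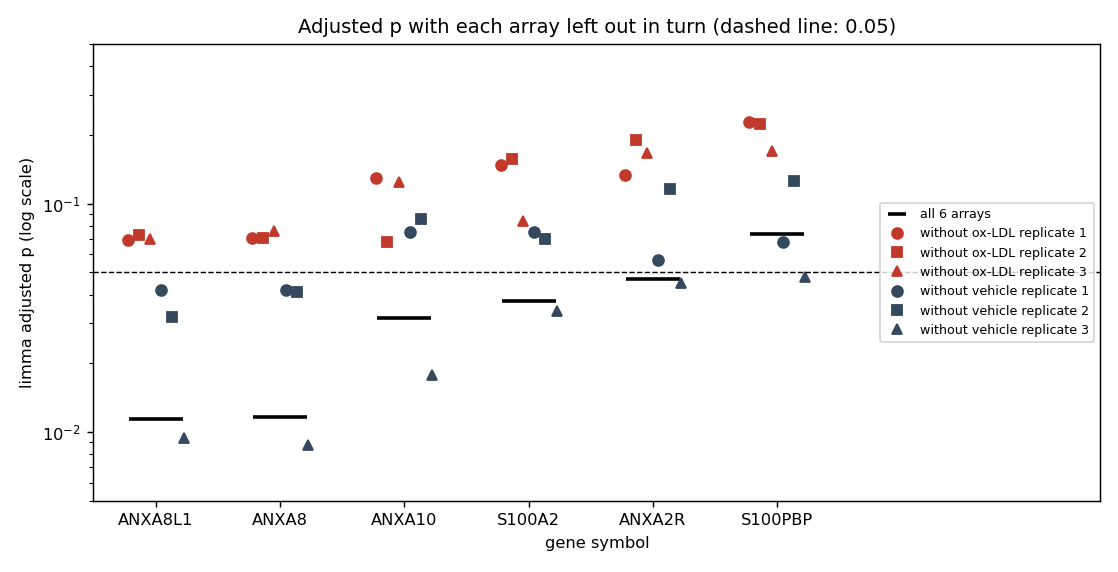
Limma adjusted p (log scale) for the 5 members that passed and for S100PBP, with all 6 arrays (black bars) and with each array left out (red for an ox-LDL array, dark blue for a vehicle array). No red point lies under the dashed line at 0.05, and the points without vehicle replicate 3 lie under it for all 6 genes. Calls over all probe sets were 1451 with all arrays, 305 to 335 without an ox-LDL array and 2670 without vehicle replicate 3.

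The S100 genes with the brightest probe sets differed little. S100A10, the partner of annexin A2, which does not itself respond to calcium, had log2 values of 12.52, 12.52 and 12.51 with ox-LDL against 12.45, 12.51 and 12.26 with vehicle (difference 0.11, SE 0.09), beside the 0.12 of ANXA2. Without vehicle replicate 3 these were 0.040 for S100A10 and 0.075 for ANXA2. S100A11, the partner of annexin A1, had values of 12.37, 12.36 and 12.37 with ox-LDL against 12.52, 12.50 and 12.39 with vehicle (difference -0.10, SE 0.07), beside the 0.12 of ANXA1. Neither partner passed the test (adjusted p = 0.425 and 0.379), and the difference between partners was not tested. S100A16, S100A6 and S100A13 had differences of -0.12, 0.07 and 0.09, and all of their 95% confidence intervals held 0. S100A4, known from metastasis and as a binder of non-muscle myosin, had values of 6.65, 6.24 and 6.44 with ox-LDL against 6.41, 6.61 and 6.31 with vehicle, a difference of -0.00 with an interval of -0.31 to 0.31. Its values lay near those of HBB, so its expression here is uncertain.

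The inflammatory S100 genes of myeloid cells and keratinocytes lay low on these arrays. S100A8, which forms calprotectin with S100A9, had log2 values of 3.86, 3.64 and 3.38 with ox-LDL against 3.87, 3.39 and 4.20 with vehicle, all under the negative control limit. Its difference of -0.19 was -0.0022 without vehicle replicate 3. S100A9 had values of 5.83, 5.72 and 5.76 with ox-LDL against 5.56, 5.69 and 5.77 with vehicle, all above it, and a difference of 0.10 (SE 0.08, adjusted p = 0.467). S100A12 and S100A7, which is also called psoriasin, were under the limit on all arrays, with differences of -0.10 and -0.18, and S100A7A, a near relative of S100A7, had a difference of 0.04. The groups of all 5 genes overlapped, and none passed. S100A3 and S100A5 had differences of 0.05 and -0.04. S100B, of glial cells, and S100G, the intestinal calbindin, were under the limit on all arrays, with differences of 0.06 and -0.07.

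The S100 genes share a position that the selection did not use. In the RefSeq gene table (GRCh38.p14, used for gene order) 16 of the 20 S100 genes lie in 1 stretch of chromosome 1, with S100A10 and S100A11 at its start and S100A9 to S100A1 at its end. S100A2, which rose, has S100A3 (difference 0.05) and S100A16 (-0.12) as its measured neighbours, and neither passed. Next along the chromosome come S100A14 (-0.42), S100A13 (0.09) and S100A1 (-0.36), so adjacent genes took both signs. Between the ends of the stretch stood 46 other measured genes, among them cornified envelope genes of skin, of which 18 were at or below the negative control limit in both groups. None of the 46 passed in limma or with an unmoderated t statistic, and 6 had an unadjusted p under 0.05, where 26.1% of all probe sets did. Their median difference was -0.14, with 39 of 46 below 0, against -0.02 for the 16 S100 genes, with 9 below 0. Over all probe sets 11818 of 21448 were below 0, with a median of -0.03. The median of the 46 was not computed without vehicle replicate 3, the array that stood apart. Nor were the 46 compared with probe sets of like level, so these counts are not read as a shift of the stretch.

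**Figure D4:**
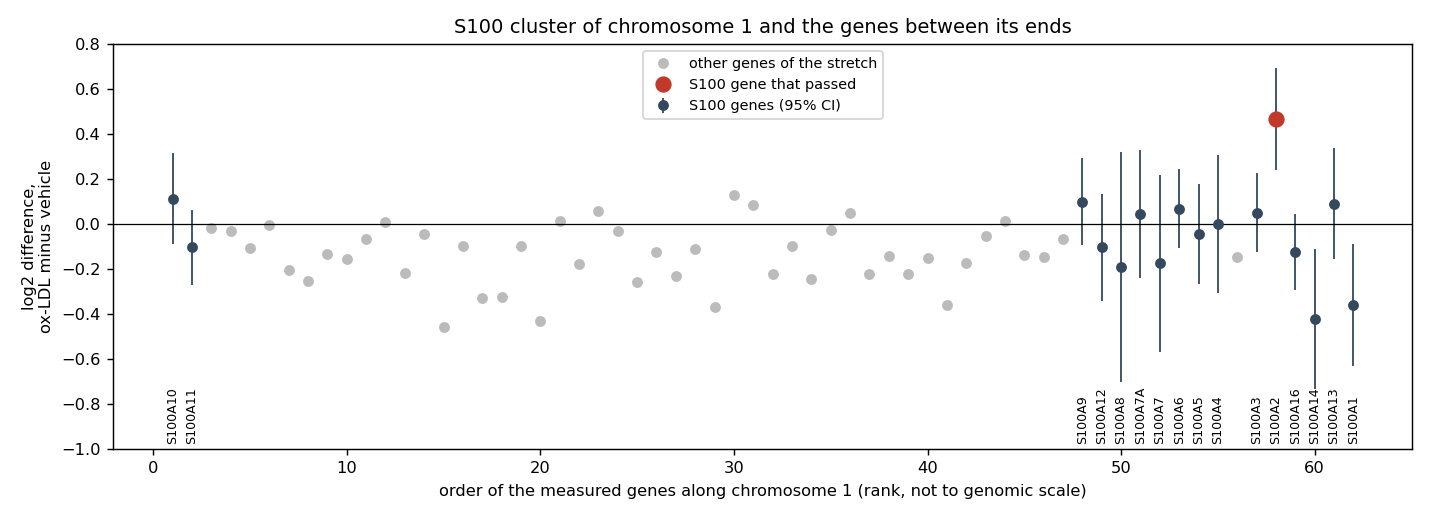
Differences of log2 value, ox-LDL minus vehicle, against the order of measured genes along the S100 stretch of chromosome 1 (rank, not distance), S100 genes with 95% confidence intervals and the other 46 genes in grey. S100A2 is the point in red at 0.47, with neighbours near or under 0.

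Promoters of 4 of the 5 members that passed, S100A2, ANXA8L1, ANXA10 and ANXA2R, are printed to show what lies at their start sites, and that of ANXA8 is not shown. The windows run from 250 bases before to 50 after the start in RefSeq (GRCh38.p14), with matches to 3 motifs in capitals. The motifs, searched on both strands, were TGANTCA for AP-1, TTGCNNAA for C/EBP and TGATGNAA for ATF4, where N is any base. A match on the other strand is shown as its reverse complement.
S100A2 (chr1:153565795-153566094, minus strand): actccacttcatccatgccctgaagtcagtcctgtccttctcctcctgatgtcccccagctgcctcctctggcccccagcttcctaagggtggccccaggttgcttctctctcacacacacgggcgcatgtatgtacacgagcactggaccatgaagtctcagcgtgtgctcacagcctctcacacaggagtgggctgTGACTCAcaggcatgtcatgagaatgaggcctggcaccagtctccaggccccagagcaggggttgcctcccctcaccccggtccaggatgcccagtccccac
ANXA8L1 (chr10:46375526-46375825, plus strand): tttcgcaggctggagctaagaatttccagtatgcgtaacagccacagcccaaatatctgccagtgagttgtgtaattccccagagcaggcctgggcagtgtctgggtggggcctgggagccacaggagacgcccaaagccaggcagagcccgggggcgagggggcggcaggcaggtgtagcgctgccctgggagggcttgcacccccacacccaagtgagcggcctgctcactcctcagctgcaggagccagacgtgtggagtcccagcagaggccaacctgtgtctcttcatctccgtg
ANXA10 (chr4:168092287-168092586, plus strand): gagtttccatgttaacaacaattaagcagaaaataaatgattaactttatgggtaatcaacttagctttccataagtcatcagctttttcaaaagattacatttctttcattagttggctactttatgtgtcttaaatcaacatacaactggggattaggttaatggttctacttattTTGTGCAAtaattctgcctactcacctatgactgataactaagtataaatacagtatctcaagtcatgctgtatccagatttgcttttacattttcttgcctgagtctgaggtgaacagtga
ANXA2R (chr5:43043198-43043497, minus strand): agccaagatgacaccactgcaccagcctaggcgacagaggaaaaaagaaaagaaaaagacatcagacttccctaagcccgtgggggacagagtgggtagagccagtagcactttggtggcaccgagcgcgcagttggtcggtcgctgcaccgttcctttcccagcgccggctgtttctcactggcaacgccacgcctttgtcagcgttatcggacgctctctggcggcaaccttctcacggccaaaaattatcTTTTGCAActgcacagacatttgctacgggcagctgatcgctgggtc
S100A2 held an AP-1 match that begins 52 bases before the start, ANXA10 a C/EBP match that begins 72 bases before it, and ANXA2R a C/EBP match just after the start. The ANXA8L1 window held none of the 3. An AP-1 match was found in 4 of 32 member promoters and in 7.72% of 27305 gene promoters, a C/EBP match in 6 of 32 and in 10.6%, and an ATF4 match in 2 of 32 and in 3.67%. Matches describe letters only.

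Among 16 measured genes of a list of receptors, binding partners and plasminogen system genes, PLAUR, PLAU and PLAT fell, EZR rose and 12 did not pass. Over all probe sets 3.29% fell and 3.48% rose. PLAU and PLAUR are listed for the plasminogen system and are not counted as partners of either family. The list was chosen with earlier results of these data known, so its count is no test of partners. The fallen genes belong to the plasminogen system, in which annexin A2 and S100A10 bind plasminogen at the cell surface. PLAUR, the receptor of urokinase, had log2 values of 9.38, 9.39 and 9.45 with ox-LDL against 10.07, 10.06 and 10.28 with vehicle, a difference of -0.73 (SE 0.09, adjusted p = 0.00549). PLAU, urokinase itself, had values of 10.88, 10.75 and 10.81 with ox-LDL against 11.48, 11.41 and 11.38 with vehicle, a difference of -0.61 (SE 0.07, adjusted p = 0.00624). PLAT, tissue plasminogen activator, had values of 10.21, 10.16 and 10.10 with ox-LDL against 10.73, 10.64 and 10.72 with vehicle, a difference of -0.54 (SE 0.07, adjusted p = 0.00912). In all 3 the ox-LDL arrays were lower without overlap, while ANXA2 and S100A10 had the differences of 0.12 and 0.11 given above. PLG, plasminogen, was at or below the negative control limit in both groups. The calls of PLAUR and PLAU were kept without any 1 array, and that of PLAT was lost without ox-LDL replicate 1, 2 or 3 (adjusted p = 0.0517, 0.0619 and 0.0630).

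EZR, which encodes ezrin, a membrane-to-actin linker that S100P binds, had log2 values of 12.03, 12.03 and 12.03 with ox-LDL against 11.76, 11.71 and 11.64 with vehicle, a difference of 0.33 (SE 0.07, adjusted p = 0.0411). The groups did not overlap, and S100P had the difference of -0.38 given above. The EZR call was lost without any 1 array other than vehicle replicate 3 (adjusted p = 0.0657 to 0.167). MYH9, the non-muscle myosin heavy chain bound by S100A4, had values of 11.48, 11.44 and 11.46 with ox-LDL against 11.14, 11.15 and 11.25 with vehicle, a difference of 0.28 (SE 0.07, adjusted p = 0.0596), and was called without vehicle replicate 3 (0.32, adjusted p = 0.0204). BSG, basigin, a receptor of S100A9, had a difference of 0.15 (SE 0.07, adjusted p = 0.229). AGER, the receptor for advanced glycation end products, and TLR4, both receptors of S100 proteins, had differences of -0.15 and -0.08 and did not pass. The formyl peptide receptors of annexin A1 did not pass either, with FPR1 and FPR3 at or below the negative control limit in both groups.

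**Figure D5:**
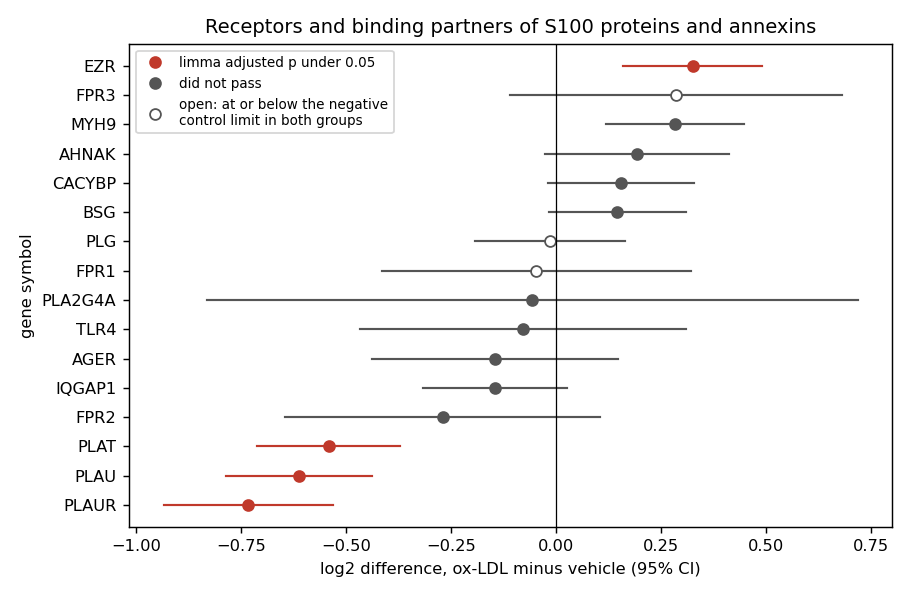
Differences of log2 value, ox-LDL minus vehicle, with 95% confidence intervals for the 16 measured receptors, binding partners and plasminogen system genes. Red marks genes that passed the test, and open points those with both groups at or below the negative control limit. PLAUR, PLAU and PLAT stand to the left of 0 and EZR to the right.

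The 7 fused-type relatives of the S100 genes, long proteins of skin and hair such as filaggrin whose first part is an S100 domain, were mostly dim, with 6 at or below the negative control limit in both groups. None passed in limma or with an unmoderated t statistic, and 1 had an unadjusted p under 0.05. Over all probe sets 6.77% passed in limma and 26.1% had such a p. FLG2 and FLG had the smallest p, with differences of -0.25 and -0.20, both with ox-LDL arrays below vehicle arrays without overlap and both under the limit.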

How the data were processed

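Biotinylated cDNA was made from total RNA of 6 samples, 1 array each, per the labels' protocols. The deposited table holds log2 values, and the submitters' processing notes name RMA. Its version and settings, and the genome build, were not given in the sources used here. The number of arrays limits the precision. RMA equalises arrays, and it pulls dim values together, so changes near the background can be understated. The 2902 control probe sets were left out of the tests. Symbols came from a table of the platform's annotation, in which 17709 of 21448 probe sets had 1 gene symbol. The other 3739, with no symbol or with several, were left unnamed here and could not be members.

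All 6 arrays entered 1 limma fit (lmFit and eBayes, limma 3.58.1, R 4.3.3) of ox-LDL minus vehicle without the replicate number, and p-values were adjusted over 21448 probe sets and called under 0.05. No filter on dim probe sets was applied. The procedure was also run on simulated data, with independent values and the same spread on all 6 arrays. That run does not cover an array that stands apart, as vehicle replicate 3 did. The members, the lists and the tests were chosen with earlier results of these data known. Members that passed and the 4 S100 and 4 annexin symbols with the next smallest p are given on every array; other members were grouped by role, and those given on every array were chosen after their values were seen. Lists were receptors and binding partners with plasminogen system genes, fused-type relatives, other EF-hand proteins, copines and ferlins, and cornified envelope genes. In each, up to 6 passing members and the 2 smallest p of the rest were named. Sequences are RefSeq's, with promoter windows for 32 of 35 members. Figures were drawn with matplotlib 3.10.9.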

Additional observations from a re-analysis of the deposited data

How the results depend on the processing

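The S100 count of 1 moved to 2 among probe sets above the median level and under a robust fit with an intensity trend, to 3 with array weights, and to 0 with an unmoderated t statistic, with the replicate block, at an adjusted p under 0.01 and by the design's selection; it ran from 0 to 2 with 1 array left out. With all arrays 6 S100 and 5 annexin symbols had an unadjusted p under 0.05, where 26.1% of all probe sets did. The annexin count of 4 moved to 0 with the replicate block, at 0.01 and by the design's selection, and ran from 0 to 4 with 1 array left out. Over all probe sets the 1451 calls became 2608 above the median level, 2649 with the trend, 3962 with array weights, 550 with the replicate block, 382 at 0.01 and 496 by the design's selection, and 305 to 2670 with 1 array left out. The 305 came without ox-LDL replicate 2 and the 2670 without vehicle replicate 3. Without ox-LDL replicates 1 and 3 there were 309 and 335. The 7 calls among list genes became 12 with the trend, 13 with weights, 4 with the replicate block, 4 at 0.01, 3 by the design's selection and 2 to 8 with 1 array left out. The S100 median was 0.047 above the negative control limit and 0.079 above the median level, and ran from -0.042 to 0.042 with 1 array left out, so its sign turned. The annexin median was 0.049 to 0.10 with 1 array left out. None of the members shown array by array under the naming rule changed direction under any setting run. Deviations from group means of arrays with the same replicate number correlated at -0.01, 0.03 and 0.02 across groups. Such correlations cannot show whether the samples were handled as pairs. The study's design names no covariate, so the block is given only here. Fits with fewer arrays or a block have fewer residual degrees of freedom; the cause of other shifts was not tested. Low signal limits the 7 members at or below the negative control limit in both groups.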

Other observations

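Of 34 measured EF-hand proteins outside the S100 family, NCS1 and RCN2 rose, NUCB2 fell and 31 did not pass, where 6.77% of all probe sets passed. NUCB2, which encodes nucleobindin 2, the precursor of nesfatin-1, had log2 values of 10.37, 10.40 and 10.42 with ox-LDL against 11.11, 11.04 and 10.90 with vehicle, a difference of -0.62 (SE 0.08, adjusted p = 0.00805). NCS1, neuronal calcium sensor 1, had a difference of 0.46 (SE 0.09, adjusted p = 0.0282) and RCN2, a calcium-binding protein of the endoplasmic reticulum, one of 0.42 (SE 0.09, adjusted p = 0.0453). The groups did not overlap in any of the 3. Dropping any ox-LDL array ended all 3 calls (adjusted p = 0.0501 to 0.168). That of NCS1 was also lost without vehicle replicate 2 (0.0817), and that of RCN2 without vehicle replicates 1 and 2 (0.0801 and 0.0666). GCA, grancalcin, and LCP1, an actin-bundling plastin, did not pass, with differences of 0.30 and -0.36. The median of the list was -0.03, as it was over all probe sets.

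Of 13 copines and ferlins, membrane proteins that bind calcium through C2 domains, none passed in limma or with an unmoderated t statistic. An unadjusted p under 0.05 was found for 3 of them, where 26.1% of all probe sets had one and 6.77% passed in limma. CPNE6, at or below the negative control limit in both groups, had a difference of -0.36 (adjusted p = 0.0978), and MYOF, myoferlin, which takes part in membrane repair, one of 0.23 (SE 0.08, adjusted p = 0.134). Of 16 cornified envelope genes that lie beside the S100 genes, none passed by either test, and 9 were at or below the limit in both groups. Only 1 had an unadjusted p under 0.05, against the same 26.1% of all probe sets. SPRR2F and SPRR2D, small proline-rich proteins of the envelope, had differences of -0.36 and -0.22, both under the limit, and SPRR2F was called without vehicle replicate 1 (-0.51, adjusted p = 0.0492).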
